A study of Drosophila melanogaster with 2 samples.

Results

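The weak replicated Bab2 peaks were sites in the precipitate of Bab2-eGFP chromatin whose signal was below that of every peak in the authors' optimal list but which had a summit in both biological replicates. They were chosen from the relaxed list called on the pooled reads of both replicates (dm6 build): a peak was kept when its signal was below the lowest signal of the optimal list and when each replicate's own relaxed list held a summit within 200 bp. These criteria were met by 9516 of the 19389 pooled peaks below that signal (49.1%), out of 24109 pooled peaks in all. The same distance criterion was met by 4701 of the 4720 optimal peaks (99.6%), a list set by a procedure for reproducibility. That list held every pooled peak at or above its lowest signal, so it equals a cut by pooled signal. Both criteria are measured values, so the signals and replicate ranks of these peaks are given as description. All libraries came from 1 group of embryos, taken whole and with both sexes together at an age of 0 to 24 h, from a Drosophila melanogaster transgenic line (strain bab2-GFP) that stably carries Bab2 with GFP fused to its C-terminus. Chromatin sonicated to 200 to 800 bp was precipitated with an antibody against GFP, in 2 libraries from separate biosamples numbered 2 and 3. Whole embryos mix cells with and without Bab2, so few cells with strong binding and many with weak binding cannot be told apart. The experiment the labels name as a possible control was not analysed here, and binding cannot be told apart from a precipitation bias towards open or transcribed loci. Peak lists hold no RNA, so the labelled stage was not checked against marker genes.

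Bab2 (bric-à-brac 2) is a nuclear protein with a BTB domain, through which such proteins pair, and a DNA-binding domain related to that of the pipsqueak protein. It is known for its part in the segmentation of the leg, the formation of terminal filaments in the ovary and the sex-specific pigmentation of the abdomen. A relaxed list is made to hold true sites and background together, so that the irreproducible discovery rate procedure can set its threshold from how well the replicates rank the same sites.

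The sequences under 8 of the weak replicated summits are printed below. All 8 come from the strong end of the set, with pooled signals of 68.1 to 76.1 against a median of 42.6 over all members. Each is the window from 50 bp before to 50 bp after the pooled summit, plus strand, from the RefSeq copy of the release 6 assembly (dm6), and none overlaps an annotated untranslated region. The intron site of RapGAP1 (chr2L:7541534-7541634) and the intergenic site nearest to CG13896 (chr3L:722644-722744) are among the 3 members of highest signal. The sites of CG7484 (chr3L:17654511-17654611) and Lrch (chr2L:17384309-17384409) are the promoter members of highest signal among those that qualified for printing, and the site in a coding exon of Abl (chr3L:16646994-16647094) is the strongest such exon member. The promoter sites of CG14270 (chrX:3485382-3485482) and CG42340 (chrX:6524339-6524439) are the strongest such sites that hold TATCGATA and GGTCACAC. The CG7484 summit stands 199 bp from an optimal summit and the Lrch summit 1889 bp from one. The site near Brd (chr3L:14972002-14972102) was chosen, after its values were seen, for its 3 copies of CAGTG. Capitals mark GATAAG in RapGAP1, CGATA and GATAAG in CG7484, TAATAA in Lrch, GAGAG and CAGCTG in Abl, and the motif just named in CG14270, CG42340 and Brd, on either strand.
RapGAP1: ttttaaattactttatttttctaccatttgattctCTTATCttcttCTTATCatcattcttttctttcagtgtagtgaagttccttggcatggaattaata
CG13896: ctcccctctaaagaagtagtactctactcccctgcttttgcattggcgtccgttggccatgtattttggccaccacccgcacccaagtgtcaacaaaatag
CG7484: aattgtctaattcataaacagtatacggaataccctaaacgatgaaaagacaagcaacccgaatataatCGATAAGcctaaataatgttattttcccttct
Lrch: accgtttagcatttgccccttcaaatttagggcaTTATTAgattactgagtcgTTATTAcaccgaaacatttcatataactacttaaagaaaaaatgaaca
Abl: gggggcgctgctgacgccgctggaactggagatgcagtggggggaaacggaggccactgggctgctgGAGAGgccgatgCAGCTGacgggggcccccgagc
CG14270: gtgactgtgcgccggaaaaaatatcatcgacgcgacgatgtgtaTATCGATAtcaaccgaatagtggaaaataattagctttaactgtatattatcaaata
CG42340: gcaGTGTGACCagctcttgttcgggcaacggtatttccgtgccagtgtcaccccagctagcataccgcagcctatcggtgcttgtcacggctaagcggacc
Brd: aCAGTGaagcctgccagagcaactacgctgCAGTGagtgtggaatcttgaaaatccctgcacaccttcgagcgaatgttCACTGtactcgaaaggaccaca

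The pooled signal of the weak replicated peaks, the authors' value per peak with no stated scale, ran from 24.7 to 76.1 with a median of 42.6 and quartiles of 34.7 and 54.3. Optimal peaks had a median of 128, and weak peaks without a summit in both replicates had 28.8. The authors' −log10 q-value of the weak replicated peaks had a median of 0.659. It reached 1 in 3386 of them (35.6%) and 2 in 1220 (12.8%). Among the other weak peaks 221 (2.24%) reached 1, and every optimal peak was above 2. All 3 sets had a median width of 424 bp. Just inside the limit stood the RapGAP1 intron site with a pooled signal of 76.1, a replicate 2 signal of 30.6 and a replicate 3 signal of 44.5. Just outside it stood the optimal peak of lowest signal, 439 bp upstream of CG6891, with 76.1 pooled, 37.0 in replicate 2 and 38.3 in replicate 3. Both had a −log10 q of 2.65, so the limit runs through a continuous range of values. On the older dm3 build, where the lowest optimal signal was 78.9, 8525 of 17199 weak pooled peaks (49.6%) met the same criteria.

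**Figure D1:**
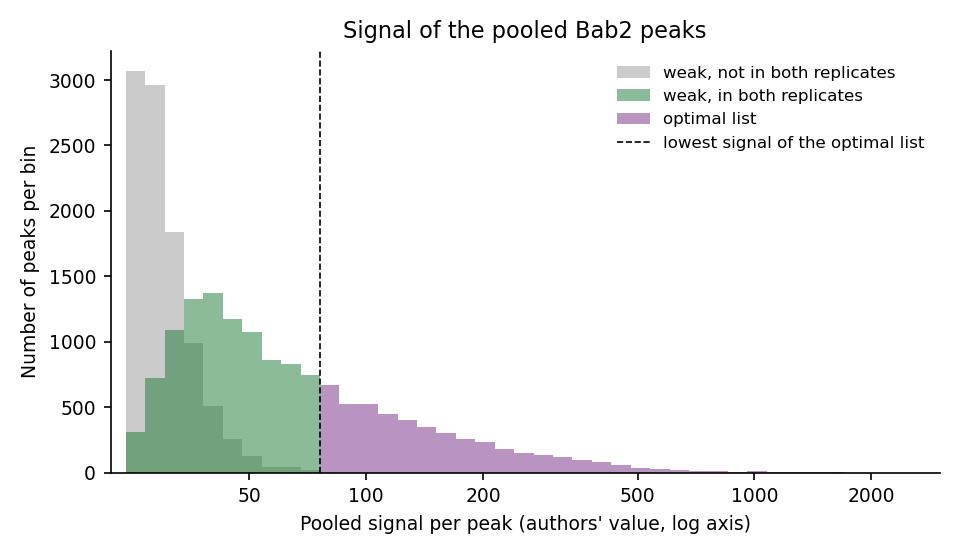
Number of pooled Bab2 peaks per bin of pooled signal (authors' value, log axis) for optimal peaks, weak peaks with a summit in both replicates and weak peaks without one. The dashed line marks the lowest optimal signal, 76.1, and the weak replicated peaks make up nearly all peaks just below it.

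A weak peak was found in both replicates more often the stronger it was, which the rule builds in because the pooled signal comes from the reads of the same libraries. Between 24.7 and 30 in signal 950 of 6768 weak peaks (14.0%) were replicated. The share was 48.1% between 30 and 40, 80.8% between 40 and 50, 92.9% between 50 and 60, 95.2% between 60 and 70, and 97.3% between 70 and 76.1. Taken alone, replicate 2 held a summit near 14163 weak peaks (73.0%) and replicate 3 near 13997 (72.2%). Of these, 4647 were found in replicate 2 only and 4481 in replicate 3 only, and 745 weak peaks were found in neither. The bases within 200 bp of any summit made up 7.78% of the chromosome arms for the 27372 peaks of replicate 2 and 7.37% for the 25804 of replicate 3.

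Within the replicates these sites were of middling rank. Their signal in replicate 2 had a median of 20.5 (13.0 to 227) and in replicate 3 of 21.5 (12.8 to 686). The median rank was 11835 in replicate 2 and 11122 in replicate 3. Pooled and replicate summits lay close together, with a median distance of 14 bp in replicate 2 and 19 bp in replicate 3, and 72.9% and 72.8% of summits were within 50 bp. The signals differed by more than 2-fold between the replicates at 942 peaks (9.90%), of which 605 were higher in replicate 3 and 337 in replicate 2. Across the 9516 peaks Spearman's rho between the replicate signals was 0.324, against 0.751 across optimal peaks. This is a description, since the peaks share both libraries and were held to a narrow range of pooled signal. In 86 peaks both replicate ranks were 4720 or better, the length of the optimal list, and in 1161 peaks 1 of them was.

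The members that ranked best in both replicates lay beside strong peaks. The 8 members whose worse rank was best all lay 199 to 207 bp from an optimal summit, and their replicate summits lay 143 to 200 bp away from the pooled one. The first was at Rbsn-5, which encodes an endosomal Rab effector, with a pooled signal of 47.1, a replicate 2 signal of 227 (rank 149) and a replicate 3 signal of 287 (rank 160). Next came an intron site of Tlk, a kinase gene, with 31.1 pooled, 163 in replicate 2 and 189 in replicate 3. The promoter of aurA, which encodes the mitotic kinase Aurora A, had 49.5 pooled, 105 in replicate 2 and 127 in replicate 3. For these sites the replicate value is that of a summit that may also belong to the optimal neighbour. The 8 members of lowest pooled signal, at 24.7 to 24.8, included an intergenic site of bab1 and a further intron site of Tlk with 125 in replicate 2 and 73.2 in replicate 3. That Tlk site too lay 200 bp from an optimal summit.

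No 2 summits of the pooled list were closer than 199 bp, and 538 weak replicated peaks stood 191 to 210 bp from an optimal summit. Only 105 stood at 211 to 250 bp and 31 at 251 to 500 bp, followed by 642 at 501 to 1000 bp. Of the other weak peaks 133 stood at 191 to 210 bp, 67 at 211 to 250 bp, 33 at 251 to 500 bp and 571 at 501 to 1000 bp. Within 1000 bp of an optimal summit lay 1316 weak replicated peaks (13.8%, Wilson 95% interval 13.2% to 14.5%) against 804 of the other weak peaks (8.14%, 7.62% to 8.70%). The rule can build in part of this difference, since a weak peak beside an optimal one can qualify through its neighbour's replicate summits. How much it adds was not tested. At equal signal the order of the 2 shares was not kept throughout. The shares were 15.3% against 6.51% in the lowest signal bin, from 24.7 to 30, and 11.4% against 9.23% at 30 to 40. At 40 to 50 the shares were 13.6% and 14.5%, at 50 to 60 15.3% and 22.6%, at 60 to 70 15.3% and 14.5%, and at 70 to 76.1 19.2% and 26.7%, with few other weak peaks in the upper bins. At 343 weak replicated peaks (3.60%) the same replicate summit was also the nearest summit of an optimal peak, in both replicates at 51 of them. These 343 had a median signal of 38.8 in replicate 2 and 46.6 in replicate 3, against 20.2 and 21.2 for the other 9173. Their pooled median was 39.0, against 42.7. When each replicate summit had to have the weak peak as its own nearest pooled summit, 8739 peaks met the rule. Of these, 11.3% lay within 1000 bp of an optimal summit.

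**Figure D2:**
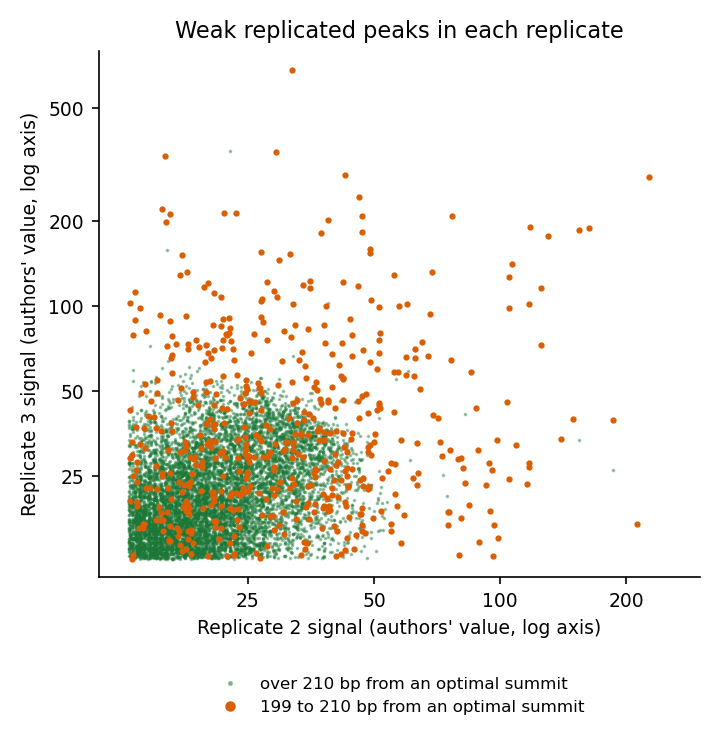
Replicate 2 signal against replicate 3 signal (authors' values, log axes) for the 9516 weak replicated peaks, each a point, with those 199 to 210 bp from an optimal summit in orange and the rest in green. Most points lie near the medians of 20.5 and 21.5, and the points with high values in either replicate are mostly orange.

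The weak replicated peaks lay at gene starts less often than optimal peaks and, taken over all signals, more often than the other weak peaks. Among weak peaks of equal signal this order was not kept, as given below. Within 500 bp of the transcription start site (TSS) of a protein-coding gene, here called a promoter, lay 2818 of them (29.6%, Wilson 95% interval 28.7% to 30.5%). The share was 46.4% (45.0% to 47.8%) of optimal peaks, 21.4% (20.6% to 22.2%) of the other weak peaks and 29.5% of the whole pooled list. Adjoining windows of the same size laid over the 134 Mb of the 6 arms gave 11.5%. Exons outside promoters held 995 weak replicated peaks (10.5%, 9.86% to 11.1%), against 1.76% of optimal peaks, 18.7% of other weak peaks and 19.2% of the windows. Introns held 3820 (40.1%) and intergenic sequence 1883 (19.8%), against 39.3% and 30.0% of the windows. Intervals cover counting error only, since neighbouring peaks share reads, and the read depth was not given.

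**Figure D3:**
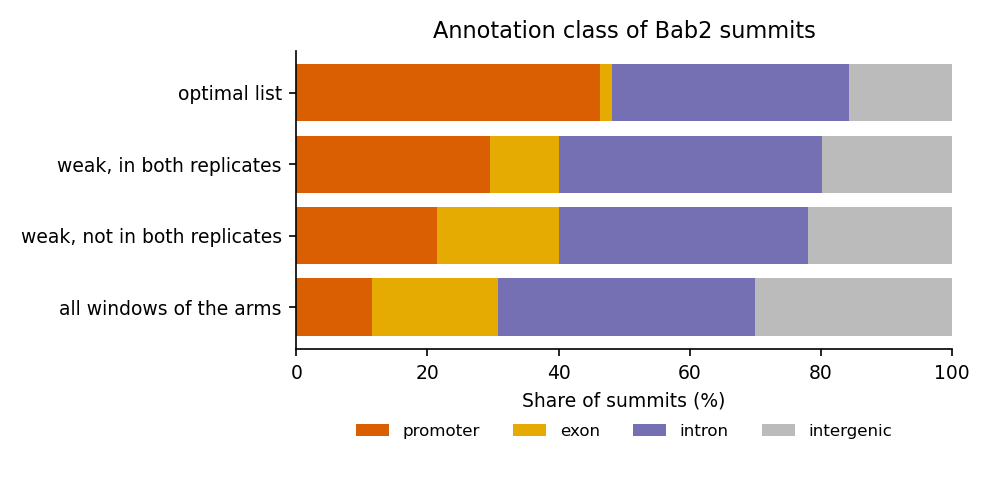
Share of summits (%) in promoters, exons, introns and intergenic sequence, classes assigned in that order, for optimal peaks, weak replicated peaks, other weak peaks and all windows of the arms. The promoter share steps down from 46.4% to 29.6%, 21.4% and 11.5%, and the exon share goes from 1.76% to 10.5%, 18.7% and 19.2%.

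Among the 995 exon sites, coding sequence held 738 (74.2%), 3' untranslated regions 171 (17.2%) and 5' untranslated regions 86 (8.64%). The 83 optimal exon sites were spread otherwise, with 12 in coding sequence (14.5%), 39 in 3' (47.0%) and 32 in 5' untranslated regions (38.6%). The 1845 exon sites of other weak peaks were nearer to the weak replicated ones. Of these, 80.5% lay in coding sequence, 14.0% in 3' and 5.20% in 5' untranslated regions. The 3 strongest exon sites lay in 3' untranslated regions and had pooled signals of 75.9, at CG13949, CG14053 and CG7378. The coding exon site of Abl, which encodes a non-receptor tyrosine kinase of axon guidance, had a pooled signal of 71.6, a replicate 2 signal of 33.7 and a replicate 3 signal of 39.4. Its window, printed above, has a GC content of 72.3%.

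Around the start site the weak replicated summits were placed less far upstream than the optimal ones. Of the promoter members 1716 lay upstream of the TSS and 1096 downstream (61.0% upstream, 59.2% to 62.8%), with a median position 38 bp upstream (quartiles −168 and 73 bp). Optimal promoter summits were upstream in 82.3% of cases with a median at −93 bp, and other weak summits in 48.7% with a median at 9 bp. The windows of the arms gave 45.0%. With the limit at 250 bp from a TSS the promoter share of weak replicated peaks was 21.9%, and at 1000 bp 40.0%. The same 2 limits gave 37.7% and 55.6% of optimal peaks, 13.6% and 33.2% of other weak peaks, and 6.26% and 20.3% of the windows.

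**Figure D4:**
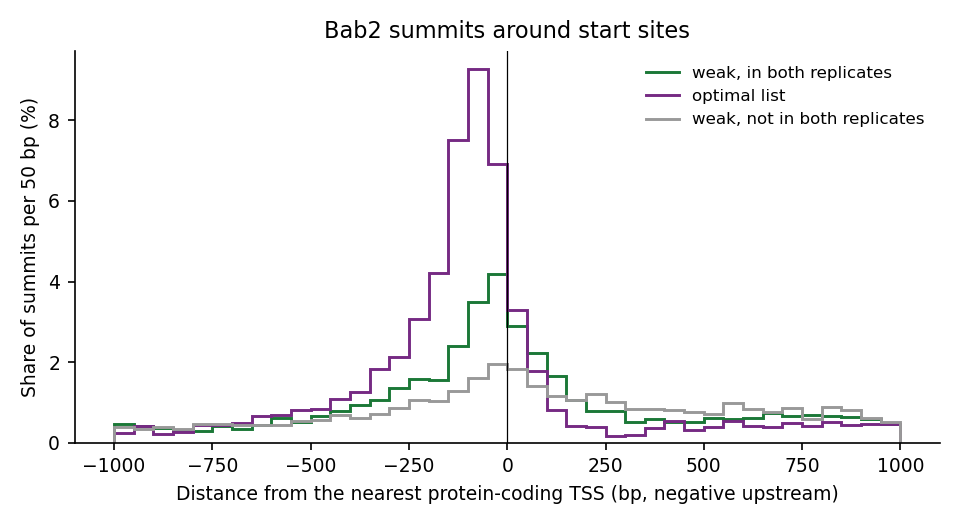
Share of all summits of a set (%) per 50 bp of distance from the nearest protein-coding TSS (bp, negative values upstream) for weak replicated, optimal and other weak peaks. The optimal profile peaks upstream of the TSS around its median of −93 bp, the weak replicated profile is lower there and nearer the TSS (median −38 bp), and the other weak profile is the lowest at the TSS (median 9 bp). Downstream the order turns, with the weak replicated profile the highest from 50 to 150 bp and the other weak profile the highest from 200 to 750 bp.

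Promoter share, exon share and base composition all differed with the signal. In weak replicated peaks of signal 24.7 to 30 the promoter share was 24.5% (21.9% to 27.4%), and it was 22.9% at 30 to 40, 31.3% at 40 to 50, 35.5% at 50 to 60, 37.0% at 60 to 70 and 37.9% at 70 to 76.1. The exon share over the same bins was 15.9%, 16.5%, 9.43%, 4.64%, 3.15% and 2.22%. The median GC content of the windows was 44.6%, 43.6%, 40.6%, 38.6%, 37.6% and 36.6%. Replicated and other weak peaks of equal signal did not keep 1 order in promoter share. In the lowest bin the replicated peaks were higher, with 24.5% against 17.6% (16.6% to 18.6%). At 40 to 50 they were lower, with 31.3% (29.4% to 33.2%) against 37.4% (33.5% to 41.5%). In the other bins the intervals overlapped, with 24.2%, 39.1%, 49.1% and 40.0% in the other weak peaks, the last from only 15 peaks. The exon shares of the other weak peaks, 21.4%, 16.4%, 9.04%, 5.22%, 3.64% and 6.67%, also fell over most of the range. Over all weak replicated peaks the median GC content was 40.6% at the summit and 42.6% in flanking windows 500 bp away. Optimal peaks had 34.7% and 43.6%, and other weak peaks 43.6% and 42.1%. By signal bin the other weak peaks had 44.6%, 43.6%, 41.6%, 38.6%, 38.6% and 35.6% at the summit, close to the weak replicated peaks of equal signal.

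**Figure D5:**
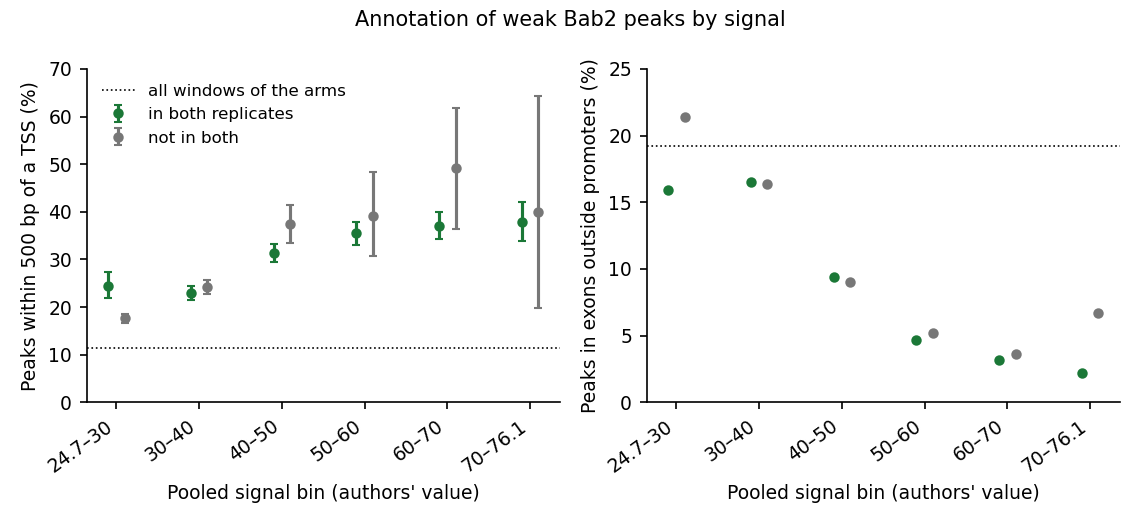
Share of weak peaks within 500 bp of a TSS (left, %, bars are Wilson 95% intervals) and in exons outside promoters (right, %, no intervals drawn) by bin of pooled signal, for weak peaks with and without a summit in both replicates. Dotted lines give the 11.5% and 19.2% of all windows of the arms, and from a signal of 40 upwards the promoter shares of both sets lie between 31.3% and 49.1%.

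The bab locus held 30 weak replicated and 7 optimal peaks, while the lists as a whole hold 9516 and 4720. These counts are not corrected for locus length and lack the other weak peaks, so no excess is read from them. The locus contains bab1 and bab2, neighbouring paralogs that act together in leg and abdomen. By nearest TSS, 15 weak replicated peaks were assigned to bab1 and 15 to bab2, with pooled signals of 24.8 to 72.6, beside 2 optimal peaks for bab1 and 5 for bab2. The strongest lay in an intron of bab1, 13556 bp downstream of its TSS, with a pooled signal of 72.6, a replicate 2 signal of 19.5 and a replicate 3 signal of 50.9. The bab1 introns are known for enhancers of abdominal expression, whose positions were not used here. An intergenic site of bab1 had 66.3 pooled, 34.8 in replicate 2 and 32.3 in replicate 3. At the start of bab2 itself, 272 bp downstream of the TSS, a weak replicated peak had 57.0 pooled, 39.9 in replicate 2 and 27.4 in replicate 3, and no optimal summit lay within 500 bp of that TSS. The optimal summit nearest to this weak peak was 9903 bp from the peak's own summit. A pair of intergenic sites of bab1, at 28.0 and 24.8 pooled, met the rule through the same replicate summits of 13.2 and 14.3. A pair of intron sites of bab2, at 55.5 and 29.1 pooled, shared the replicate 2 summit of 22.9. An intron site of bab1 at 33.3 pooled lay 199 bp from an optimal summit. The sources used here do not state how much of the bab2 locus the transgene carries.

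The weak replicated peaks reached the start sites of 3079 of 13945 protein-coding genes (22.1%). Optimal summits reached 2797 (20.1%), and 725 genes (5.20%) had both. A weak replicated summit and no optimal one was present at 2354 genes (16.9%), and 5151 genes (36.9%) had either kind. By nearest TSS 4892 genes had at least 1 weak replicated peak, 2939 of them exactly 1 and 56 of them 10 or more. Genes that also had an optimal peak received 4929 of the members (51.8%), against 44.8% of the other weak peaks.

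The genes with the most weak replicated peaks included several developmental regulators. Genes differ in length and in the sequence around them, for which these counts are not corrected. Weak peaks that did not replicate were also many at most of these genes. They numbered 15 at Eip75B, 12 at bun, 18 at hth, 16 at fz2, 19 at CG42238 and 12 at CG43658. At ush there were only 5, beside 18 members. Eip75B, an ecdysone-induced nuclear receptor gene, had 28 members over 124 kb, 21 in introns, with pooled signals of 25.1 to 71.9 and a median of 39.2. It had 8 optimal peaks, the nearest 1040 bp from a member. The gene bun, which encodes a TSC-22 family protein, had 24 members (27.4 to 75.7, median 40.0) and 6 optimal peaks. The homeobox gene hth, needed in the proximal leg, had 22 members (30.0 to 73.1, median 38.4) and 9 optimal peaks. The Wnt receptor gene fz2 had 18 members (26.2 to 74.6, median 43.9) and 2 optimal peaks, of which the stronger had a signal of 86.1. The GATA cofactor gene ush had 18 members (26.5 to 71.7, median 42.5) and 10 optimal peaks up to 445. CG42238 and CG43658 had 17 members each. Intron sites were in the majority at all 7 genes, from 14 of 24 at bun to 17 of 18 at ush.

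Weak replicated summits were found at the starts of many signalling genes, read here against the 22.1% of all protein-coding genes and, because these genes have several TSSs, against the 20.0% of all 19607 TSSs. In the ecdysone response 9 of 12 genes had such a summit and 4 an optimal one, or 28.2% of 39 TSSs for the weak replicated peaks. The receptor gene EcR had 64.6 pooled, 36.5 in replicate 2 and 29.1 in replicate 3. The early-response gene Eip74EF, which encodes an ETS factor, had 64.0 pooled, 28.9 in replicate 2 and 31.5 in replicate 3, and Eip78C, a nuclear receptor gene, had 61.6, 33.1 and 26.0 in the same order. Neither Eip74EF nor Eip78C had an optimal summit at a TSS.

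In the Wnt pathway 9 of 14 genes had a weak replicated summit and 4 an optimal one (29.4% of 34 TSSs). They covered ligands, receptors and intracellular members. The ligand gene Wnt6 had 64.4 pooled (21.3 in replicate 2, 42.8 in replicate 3), 218 bp from an optimal summit. The destruction complex gene Apc had 60.5 (30.3 and 18.7), also beside an optimal summit. The gene dsh, whose product acts below the receptors, had 58.8 (22.4 and 33.6) with no optimal summit at its TSS. Of the EGFR and FGF pathway 7 of 16 genes had a weak replicated summit and 3 an optimal one (29.0% of 31 TSSs). The gene spi, an EGFR ligand, had 72.6 pooled (26.4 and 53.7), from a summit nearer to msb1l. The FGF receptor adaptor gene stumps had 53.1 (35.0 and 15.4), and S (Star), which carries the ligand to the Golgi, had 53.1 (23.1 and 31.8), from a summit nearer to ast.

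In the BMP pathway 5 of 13 genes had a weak replicated summit and 1 an optimal one (22.2% of 27 TSSs). The type I receptor genes sax and tkv had 72.0 (35.3 in replicate 2, 37.5 in replicate 3) and 61.8 (36.3 and 29.3), and shn, which encodes a zinc finger cofactor of the pathway, had 58.3 (19.4 and 38.0). Both receptor genes lacked an optimal summit at their TSSs. The Notch pathway had 5 of 16 genes with a weak replicated and 6 with an optimal summit, led by the ubiquitin ligase gene neur at 46.8, from a summit nearer to hyx. The Hippo pathway had 4 of 11 and 5, led by ex at 72.8, which lies 206 bp from an optimal summit. Insulin and growth genes had 4 of 12 and 5, led by the kinase gene Pi3K92E at 65.1. In segment polarity 2 of 9 genes had a weak replicated summit, the Hedgehog effector ci (67.5) and the Hedgehog receptor ptc (65.6), neither with an optimal one.

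In lists of body pattern genes the counts were small, and a share is read against 22.1% of all genes for weak replicated and 20.1% for optimal summits. Of 8 Hox genes 3 had a weak replicated summit, Dfd at 50.9, Antp at 47.9 and abd-A at 43.1 pooled, or 21.1% of 19 TSSs. None had an optimal one, and with 3 counts as the limit a count of 0 of 8 allows a share of up to 37.5%. In Dfd the replicate 2 signal was 15.0 and the replicate 3 signal 30.4. Of 11 pair-rule genes only Ptx1 had a weak replicated summit (30.8) and none an optimal one. Of 11 gap and maternal axis genes 3 had one, nanos (62.4, nearer to CG11779), hb (47.1) and cad (42.2), and 1 had an optimal one. Of 14 leg patterning genes 4 had one (21.7% of 23 TSSs), against 1 with an optimal summit. They included tsh (66.8) and hth (33.6), proximal leg genes, and dac (54.2), a gene of the middle leg. Among 8 pigmentation genes, a class that Bab2 is known to repress in the pupal abdomen, 2 had one, speck (46.9) and ple (32.0), and none had an optimal one.

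BTB factor genes, the family of Bab2 itself, had a weak replicated summit in 8 of 13 cases and an optimal one in 3 (25.6% of 43 TSSs for the weak replicated peaks). The strongest was at psq, which gave this type of DNA-binding domain its name, with 70.5 pooled, 32.5 in replicate 2 and 47.8 in replicate 3. It was followed by ttk (61.1) and chinmo (58.6), a neuronal timing gene. These 3 had no optimal summit at a TSS. Sex determination and dosage compensation genes had 6 of 12 (33.3% of 24 TSSs), against 1 with an optimal summit, led by the splicing factor gene tra2 (67.6), the zinc finger gene her (56.8) and msl-1 (49.4). Of 26 neuroblast and neuronal genes 9 had a weak replicated (23.4% of 47 TSSs) and 3 an optimal summit, with grh (63.0), insc (45.3) and Poxn (43.2) strongest. Of 15 muscle genes 4 did (21.9% of 32 TSSs), led by how (56.9) and Mef2 (55.0), and of 11 septate junction and glial genes 2 did, kune (34.7) and repo (30.5).

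Lists of general cell functions differed in which kind of summit was more common. Of all protein-coding genes 22.1% had a weak replicated and 20.1% an optimal summit. Of 86 cytoplasmic ribosomal protein genes 29 had a weak replicated summit (33.7%, 24.6% to 44.2%) and 53 an optimal one. The strongest 3 of the 29 were at RpL35 (75.4), RpL28 (73.1) and RpS23 (67.2), and the first pair had their summits nearer to Rab18 and eIF1. The RpL28 summit lay 207 bp from an optimal summit. Mitochondrial ribosomal protein genes had 19 of 73 and 27, and oxidative phosphorylation subunits 23 of 84 and 21. Proteasome subunits had 12 of 34 and 12, and cell cycle genes 10 of 20 and 10. Of these cell cycle genes CycD (74.1) and Rbf (59.5), which act at the entry into S phase, had no optimal summit at a TSS. Chromatin proteins had lower counts for the weak replicated than for the optimal peaks. These were 9 of 21 Polycomb and trithorax genes against 11, 4 of 14 insulator genes against 8, and 3 of 10 histone variant and heterochromatin genes against 8. The weak replicated shares of these lists, 42.9%, 28.6% and 30.0%, were above the 22.1% of all genes. By TSS the shares were 28.6%, 17.4% and 41.2%, against 20.0% of all TSSs. The Polycomb genes Psc (74.7), esc (65.2) and ph-d (63.4) were the strongest of theirs, pzg (68.3) of the insulator list and His3.3B (66.9) of the histone list. The summits at Psc, pzg and His3.3B lay 215, 200 and 200 bp from an optimal summit. Heat shock and chaperone genes had 3 of 16 against 8, and cell death genes 1 of 10, Diap1 (61.8), against 2.

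Families expressed in restricted or late cell types had few weak replicated summits. Cuticle protein genes had 4 of 95 (4.21%, 1.65% to 10.3%), led by Cpr78E at 37.9, and 0 of 95 had an optimal one, which with 3 counts as the limit allows up to 3.16%. Gustatory receptor genes had 2 of 60, Gr63a (55.3, from a summit nearer to Lamtor4) and Gr47b (34.2). Odorant receptor genes had 0 of 59, which by the same limit allows a share of up to 5.08% (Wilson 95% upper bound 6.11%). These shares stand beside the 22.1% of all protein-coding genes. Among other gene types 49 of 290 tRNA genes (16.9%) had a weak replicated summit within 500 bp of their start, from 36 peaks. Optimal summits reached 17 tRNA genes (5.86%), and the other weak peaks also reached 49. Many tRNA genes are near-identical copies, so the placing of their reads is uncertain.

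TATCGATA and GGTCACAC, motifs of broadly active promoters, were more frequent in the windows of the weak replicated peaks than in all windows, and most windows that held them lay in promoters. TATCGATA, the DNA replication-related element, was present in 106 windows (1.11%, 0.922% to 1.35%) against 0.275% of all windows of the arms. Of the 106 windows 94 lay in promoters. The share of promoter windows was 3.34% in weak replicated peaks, 4.16% in optimal peaks and 1.56% in other weak peaks, which was 6.96, 12.1 and 2.54 times that of their flanks. Outside promoters it was 0.179% in the weak replicated peaks. One of these promoter sites, that of CG14270 printed above, had 73.3 pooled, 40.5 in replicate 2 and 28.1 in replicate 3. GGTCACAC, the core of a housekeeping promoter motif, was present in 91 windows (0.956%, 0.780% to 1.17%), 78 of them in promoters, against 0.210% of all windows. Its promoter share was 2.77% in weak replicated, 1.78% in optimal and 1.70% in other weak peaks. The site of CG42340 had 70.2 pooled, 33.3 in replicate 2 and 37.1 in replicate 3.

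The shorter motifs were common everywhere. CGATA, the element of the insulator protein BEAF-32, which is also contained in TATCGATA, was in 13.7% of weak replicated windows (13.0% to 14.4%), 16.9% of optimal and 11.8% of other weak windows, against 11.3% of all windows. In the weak replicated peaks it was in 22.7% of promoter windows, 1.70 times the share of their flanks, and in 9.91% of the windows outside promoters. TATAAA, the TATA box, was in 13.0%, 17.6%, 10.6% and 11.7%, in the same order, and 376 of its 1238 weak replicated windows lay in promoters. TAATAA was in 11.5%, 15.5%, 10.2% and 11.3%. The GAGA element GAGAG was in 11.7% of weak replicated windows and 12.6% of other weak windows, against 11.4% of all. GATAAG, which shares the letters GATA with CGATA where the motifs overlap, was in 5.26% of weak replicated windows and 4.22% of all. CAGGTAG, the element of the early embryonic factor Zelda, was in 0.504% against 0.534%. The homeodomain core TAATTA was in 6.21% against 6.47%. A match is a description of the letters in these windows and not of a bound factor.

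The short word CAGTG was about equally frequent in all sets of peaks. Of 2067 words of 6 letters compared between summits and flanks on 2L, 2R and 3L, 4 of the 8 with the highest ratios contained CAGTG on 1 of the strands. On the remaining arms, 3R, 4 and X, CAGTG was in 918 of 3951 weak replicated windows (23.2%, 21.9% to 24.6%), 16.3% of their flanks and 16.1% of all windows, a ratio to the flanks of 1.43. The share was 22.9% in optimal peaks and 22.3% in other weak peaks, with ratios of 1.36 and 1.41. In weak replicated peaks it was 23.5% inside and 23.1% outside promoters. By signal it was 21.5% in the lowest bin (17.6% to 26.0%) and 27.5% in the highest (22.1% to 33.6%). The Brd site printed above, 615 bp upstream of a gene whose product limits Notch signalling, had 68.1 pooled, 33.0 in replicate 2 and 33.9 in replicate 3.

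Along the genome the density of weak replicated peaks ran from 67.2 to 76.2 per Mb on the large arms and was 44.5 on chromosome 4, which is short and rich in heterochromatin. There 60 of 155 weak peaks (38.7%, 31.4% to 46.6%) were replicated, against 48.2% to 50.9% on the other arms. Chromosome 4 had 3.53 weak replicated peaks per optimal peak, the others 1.83 to 2.22. Of its 60 members 24 (40.0%) lay in promoters, and the strongest in an exon was in coding sequence of CG33978 (66.9 pooled, 31.0 in replicate 2, 29.0 in replicate 3). Annotated transposable elements held 43 weak replicated summits (0.452%), against 5.93% of the windows of the arms. The share was also low in optimal peaks (0.318%) and other weak peaks (0.658%). How reads from repeated sequence were placed is not given, so these low shares are not read as a trait of the sites. Other pooled summits were near, since 71.2% of the weak replicated peaks had one within 2000 bp, against 62.2% of the other weak peaks.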

How the data were processed

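ChIP-seq peak lists of 2 biological replicates were used. Per the headers of the deposited README files, relaxed lists of peaks and background went into the irreproducible discovery rate procedure, the pooled list comes from the reads of both replicates, and the optimal list is what the procedure kept. Signal per peak and the −log10 of the q-value are the authors' deposited values, and the score of the remaining used column is the deposited summit offset in bp. The aligner, peak caller, their versions, the scale of the signal and the read depth are not given in the sources used here, so the precision per peak is unknown. The pooled reads are those of the replicates and give no independent evidence.

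Summits were taken 1-based on dm6. Sequence came from RefSeq release 6, whose arm lengths match dm6, and genes from Ensembl 115 (arms 2L, 2R, 3L, 3R, 4 and X, 13945 protein-coding genes). Classes were assigned in the order promoter (500 bp), exon, intron and intergenic. Of the pooled peaks, 5 shared their coordinates with another peak. Columns of no mapped sample numbered 0. Windows of 50 bp on either side of a summit were searched on both strands for 14 motifs, those spelled in the report and the 5 that follow, with flanks 500 bp away. The AP-1 element TGACTCA was in 0.998% of weak replicated windows (0.784% of all windows), the adenine run AAAAAAAA in 6.72% (5.45%), the E-box CAGCTG in 5.01% (4.24%), the repeat CACACACA in 2.46% (2.09%) and the Myc E-box CACGTG in 1.15% (1.17%). Intervals are Wilson at 95%. With 1 group no test was made. The counting steps were tested on simulated data. The members, the 32 gene lists and the motifs were chosen with earlier results of these data known, and the spelling of list names was corrected after the first results had been seen.

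Named peaks were the 8 members of highest and of lowest pooled signal, the 8 with the best worse replicate rank, the 8 weakest optimal peaks, the 6 genes with the most members (7 with ties), and up to 3 genes per list with the highest member signal. Of these, the report names those that serve its comparisons. Sequences were taken outside 2R, 2 per class and 1 per motif at least 1.5 times as frequent as in all windows. Windows that overlap an untranslated region were passed over, which was decided after the lists were seen. Scripts ran in Python 3.11.15 (pandas 2.3.3, numpy 2.4.6, matplotlib 3.10.9, scipy 1.17.1). Alternatives were other shared distances, stricter replicate or pooled signal, single replicates, other TSS and window sizes, and 1-to-1 summits.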

Additional observations from a re-analysis of the deposited data

How the results depend on the processing

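No paired analysis was possible because the series has only 1 group. Of 82 recomputed main values 40 stayed within the 95% interval of the reported value (counts within 1.5 times) and 42 did not. With shared summits within 100 bp the share near an optimal summit was 12.2%. Within 50 bp 4995 peaks remained, 13.1% of them near an optimal summit, with 1351 genes at the start of which they stood without an optimal summit. With only the replicate peaks above the median signal of their list, 4062 peaks remained, with 35.9% in promoters, 41.4% in introns, 5.12% in exons, 17.6% in intergenic sequence, 19.9% near an optimal summit, 1257 genes and a median GC content of 38.6%. With a summit asked for in 1 replicate, whether or not the other held one, 13997 (replicate 3) and 14163 (replicate 2) peaks met the rule. Their promoter share was 26.9% to 27.2%, the exon share 12.9% to 13.2% and the intergenic share 20.0% to 20.8%. Their share near an optimal summit was 12.0% to 12.1% and their GC content 41.6%. Above the median signal of the weak pooled peaks the promoter share was 31.5%, the exon share 8.73% and the GC content 39.6%. Beyond 1000 bp from every optimal summit the promoter, exon and intergenic shares were 27.7%, 11.2% and 20.7%. With 1-to-1 summits, an alternative chosen after seeing the data, 28.7% lay in promoters and 11.3% near an optimal summit. The cause of these shifts was not tested.

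Other windows move the shares by construction. TSS windows of 250 and 1000 bp gave promoter shares of 21.9% and 40.0%, intron shares of 43.2% and 34.7%, exon shares of 12.7% and 7.31%, and intergenic shares of 22.3% and 17.9%. TSSs of all gene types gave 32.3% in promoters and 18.1% intergenic. Distances of 500 and 2000 bp to an optimal summit gave 7.08% and 26.5%, and windows of 100 bp on either side of the summit a GC content of 40.3%. Of the recomputed motif shares 23 stayed within their 95% interval and 19 did not, most of the latter in the longer windows. In the weak replicated peaks the order of promoter share (below the optimal and above the other weak peaks) was the same at all 3 TSS windows. Against other weak peaks of equal signal it was not kept. The weak replicated peaks were higher at 24.7 to 30 (24.5% against 17.6%) and lower at 40 to 50 (31.3% against 37.4%). Peak lists without read depth or a control limit every value here to a description of the lists.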
